A study of Glycine max with 30 samples.

Results

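The 200 genes described here are those whose transcripts declined most steeply between the first and the last of 5 seed developmental stages in 3MWT, a soybean line with normal seed phytic acid. The mean of the 3 normalized counts per stage was used to choose them from the 54175 annotated genes. A stage 1 mean of at least 500 was required, which 8405 genes reached, and stage 1 had to be the stage of highest mean, which left 2618 genes. The 200 with the largest log2 ratio of stage 1 over stage 5, with 1 added to each mean, were taken. These values chose the genes, so their course in 3MWT is a description. The tests below were made within *3mlpa*, which the rule did not use, and between the lines at stages 2 to 4, where the rule used 3MWT only in that no mean could exceed that of stage 1.

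Both lines came from one cross. *3mlpa* is homozygous for the mutant alleles *mips1*, *mrp-l* and *mrp-n* and has low phytic acid, and 3MWT is a sibling with the alleles MIPS1, MRP-L and MRP-N. The lines are not isogenic, and each genotype is represented by a single line, so other differences between them cannot be told apart from the alleles. Whole seeds were sorted by length into stages 1 to 5, which covered 2 to 4, 4 to 6, 6 to 8, 8 to 10 and 10 to 12 mm. There were 30 libraries, 3 for each line at each stage, and every library had its own seed pool. The 6 libraries of a stage shared a sequencing lane, so a stage and its lane cannot be told apart.

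A legume seed first forms its tissues by cell division, inside a seed coat and a nourishing endosperm, and then fills its cotyledons with storage protein, oil and carbohydrate. As filling begins, transcripts of storage proteins come to occupy a large share of the messenger RNA, and transcripts of the young seed give way. Phytic acid, the main store of phosphorus in the seed, accumulates during filling. The MIPS enzyme makes the first intermediate of inositol and phytic acid synthesis, and MRP proteins are membrane transporters needed for phytic acid to accumulate. MRP-L (Glyma19g35230) and MRP-N (Glyma03g32500), which carry point mutations in *3mlpa*, were detected in all libraries of both lines and are not among the 200 genes. A point mutation need not change the RNA level, so their counts do not check the line labels.

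In whole seeds, fewer cells of a type and less RNA per cell cannot be told apart. Counts on genes were 18625357 to 26646706 per *3mlpa* library and 14150244 to 29476755 per 3MWT library. The stage labels were checked with 14 genes that the deposited gene ontology (GO) output annotates to nutrient reservoir activity, the class of seed storage proteins. Their share of all counts was 0.003 to 0.022 % at stage 1 and 17.2 to 19.2 % at stage 5 in *3mlpa*, and 0.017 to 0.046 % and 17.5 to 18.6 % in 3MWT. These 14, of 94 background genes with the term, were listed because the authors called them differentially expressed between the lines. A difference between the lines in their share is therefore not independent of that selection. For every 100 counts on genes, 17.5 to 39.2 alignments in *3mlpa* and 51.6 to 276 in 3MWT were set aside because their place in the genome was not unique. The lines did not overlap in this measure, and its part in the differences between them was not tested.

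The 200 genes took 3.16, 3.23 and 3.50 % of all counts in the *3mlpa* stage 1 libraries. In the 3MWT stage 1 libraries their shares were 5.48, 2.47 and 6.28 %, so replicate 2 stood well below the others. The shares declined in both lines at every stage. At stage 5 they were 0.108, 0.158 and 0.101 % in *3mlpa* and 0.262, 0.224 and 0.168 % in 3MWT.

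**Figure D1:**
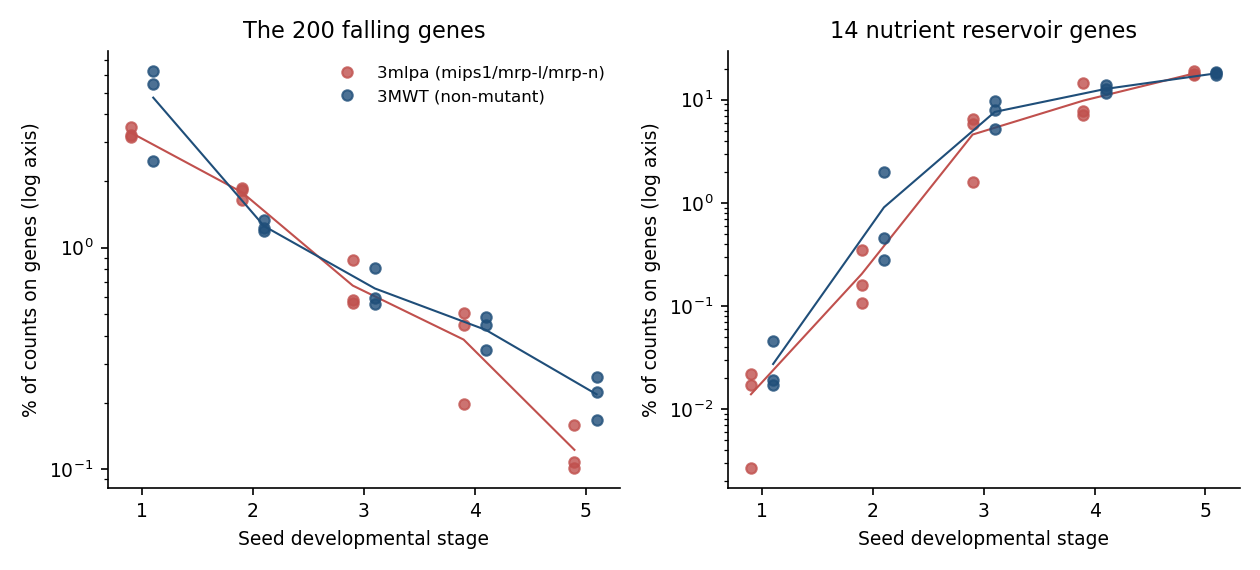
Share of all counts on genes (%, log axis) by seed developmental stage for the 200 genes (left) and for 14 nutrient reservoir genes (right). Points are libraries, 3 per line and stage, and lines join their means. The 200 genes declined from 2.47 to 6.28 % at stage 1 to 0.101 to 0.262 % at stage 5 while the nutrient reservoir genes rose to 17.2 to 19.2 %.

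Replicate 2 of 3MWT stage 1 mattered to the choice. It was the lowest of its 3 libraries in 137 of the 200 genes, and its median log2 difference from the mean of the other libraries was -0.71. When the genes were chosen without this library, 177 of the 200 were taken again. Another library that stood apart was replicate 3 of *3mlpa* stage 4, which was the lowest of its group in 173 genes. Nutrient reservoir genes took 14.5 % of its counts, against 7.04 and 7.86 % in the other *3mlpa* stage 4 libraries. In contrast, replicate 1 of *3mlpa* stage 3 held more of the 200 genes than its group (0.878 % against 0.561 and 0.582 %) and less nutrient reservoir transcript (1.58 % against 6.44 and 5.77 %). The part of these shares in the results was not tested.

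The log2 decline in 3MWT, which the rule used, ranged from 2.61 to 10.35 with a median of 3.75, a 13.5-fold decline. Just inside the limit stood Glyma09g38410, Glyma07g16910 and Glyma17g32100, each with 2.61. Just outside stood Glyma20g28320 with 2.60 and Glyma08g12650 and Glyma03g30440 with 2.59, so the limit falls in a continuous range. Without the condition that stage 1 be the highest, 18 of the 200 places would have gone to other genes. The genes lie on all 20 chromosomes, at 2.31 to 5.00 per 1000 annotated genes of a chromosome.

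Few of the genes carry an annotation in the files. The gene identifiers were not found in the reference table of locus names, and no gene among the 200 is named by the paper. GO terms were paired only with genes that the authors called differentially expressed between the lines, and 21 of the 200 genes (10.5 %, against 4.82 % of all genes) were among these. The other 179 are given by their identifiers alone.

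The gene with the highest counts was Glyma07g28940. Its normalized counts (counts divided by a size factor for each library, and not by gene length) at stage 1 were 211482, 51585 and 245603 in 3MWT and 105755, 116283 and 100829 in *3mlpa*. At stage 5 they were 22826, 18841 and 14148 in 3MWT and 2086, 3619 and 3190 in *3mlpa*. The courses differed in between. In 3MWT the gene stood at 22582 to 30773 by stage 2 and stayed at 18626 to 31583 through stages 3 and 4, whereas in *3mlpa* it passed from 49513 to 55018 at stage 2 to 9778 to 15734 at stage 4. Glyma09g36080 took the same course, with 13980 to 83485 at stage 1, 6563 to 8603 at stage 2 and 4459 to 6470 at stage 5 in 3MWT. In *3mlpa* it declined from 44358 to 48885 over 17431 to 20890 to 1773 to 2603.

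The steepest decline was that of Glyma19g01280. It had 2523, 867 and 2357 normalized counts at stage 1 in 3MWT, 129, 141 and 165 at stage 2 and 0, 1.39 and 0 at stage 5. In *3mlpa* it had 1519.7, 2418 and 1769.9 at stage 1, 364, 449.5 and 378 at stage 2 and 0, 7.58 and 7.10 at stage 5. It therefore nearly vanished in both lines, and the stage 2 libraries of *3mlpa* all lay above those of 3MWT. Glyma09g04550 and Glyma09g08960 had 0 counts in all 3 stage 5 libraries of 3MWT. Against a limit of 3 counts over the 3 libraries, their 2460 and 2327 stage 1 counts correspond to levels at least 549-fold and at least 519-fold higher at stage 1. In *3mlpa* these genes still had 8 and 4 counts at stage 5. These limits cover counting error only.

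Several of the steepest declines in 3MWT rested on replicates 1 and 3 of stage 1. Glyma09g33480 had 5742, 479 and 8811 normalized counts there and 11.5 to 20.9 at stage 5, and Glyma01g07860 had 4591, 456 and 7286. The opposite held for Glyma18g06840, with 393, 4974 and 293, and for Glyma02g37710, with 126, 1635 and 105, so their stage 1 means came mainly from replicate 2. Of the 10 largest declines in 3MWT, that of Glyma03g36610 differed most between the lines, at 9.73 on the log2 scale against 4.96 in *3mlpa*. It reached 0, 0 and 1.38 normalized counts at stage 5 in 3MWT and 17.7, 37.9 and 3.55 in *3mlpa*, all of the latter higher.

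To ask whether the same genes declined in seeds that had no part in the choice, stage 1 was compared with stage 5 in *3mlpa* with edgeR's quasi-likelihood test, with p-values adjusted by the method of Benjamini and Hochberg and a threshold of 0.01. The expression of 189 of the 200 genes declined significantly and of 0 rose. Of all genes tested, 21.6 % were called falling and 20.7 % rising. Among the genes of at least 500 and highest at stage 1 in 3MWT, 58 % were called falling, beside 94.5 % of the 200. At unadjusted p under 0.05, 198 of the 200 fell and 0 rose, where 60.9 % of all genes passed in either direction. The median log2 change was -3.73, against -0.09 over all genes tested. Without TMM scaling, on total counts, the median of all genes moved to -0.999, and the count of 189 moved by less than 1.5-fold under each alternative tried for this comparison.

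All 3 stage 5 libraries lay below all 3 stage 1 libraries in 198 of the 200 genes in *3mlpa*, which held for 33.8 % of all genes tested. On the deposited values, the log2 decline in *3mlpa* had a median of 3.70 with quartiles of 2.74 and 4.92. It was at least 4-fold in 183 genes, 8-fold in 131 and 16-fold in 90, where 3MWT had 200, 159 and 90. The decline was smaller in *3mlpa* than in 3MWT in 122 genes and larger in 78. The rule ranked genes by the 3MWT decline, which by itself favours a smaller decline in *3mlpa*. The median difference in log2 decline, *3mlpa* minus 3MWT, was -0.29. In the 200 genes that the same rule took in *3mlpa*, the median of 3MWT minus *3mlpa* was -1.06.

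**Figure D2:**
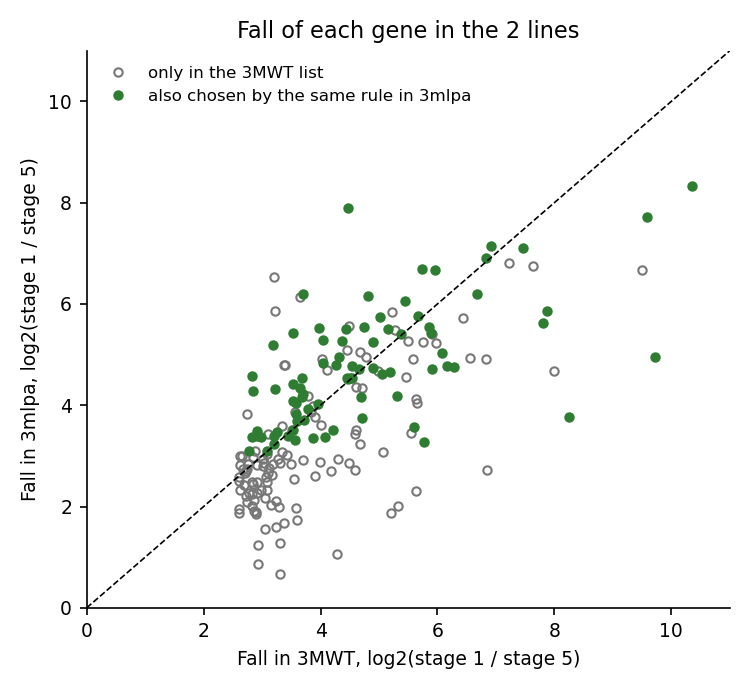
Decline of each of the 200 genes from stage 1 to stage 5, as log2 of stage 1 over stage 5 means (1 added to each), in 3MWT (horizontal axis) and *3mlpa* (vertical axis). The dashed line marks equal decline. Filled points are the 81 genes that the same rule also took in *3mlpa*, and 122 of the 200 points lie below the line. The genes were ranked by the 3MWT decline, which by itself favours points below the line.

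The largest declines in *3mlpa* were those of Glyma19g01280, Glyma08g06630, Glyma09g04550, Glyma06g17700 and Glyma11g12810, from 8.34 to 7.11 on the log2 scale. In edgeR, Glyma09g04550 fell by 8.06 ± 0.30 (SE) on the log2 scale (adjusted p = 9.04e-10) and Glyma19g01280 fell by 8.46 ± 0.42 (adjusted p = 6.28e-09). Glyma06g17700 had 721, 956 and 789 normalized counts at stage 1 and 4.84, 3.79 and 5.92 at stage 5.

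The 11 genes that missed the threshold still had lower fitted levels at stage 5. The smallest decline was that of Glyma08g17920, annotated with enzyme inhibitor activity, whose edgeR change was -0.66 ± 0.66 (adjusted p = 0.412). Its stage 1 values in *3mlpa* were 1446, 1060 and 1179 normalized counts and its stage 5 values 792, 1485 and 56.8, so the stages overlapped. In 3MWT it declined from 1600, 2134 and 1289 to 123, 271 and 110. Glyma18g52830 had the same spread at stage 5 in *3mlpa*, with 242, 487 and 14.2. These were the 2 genes whose stage 1 and stage 5 libraries overlapped.

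Other genes with small declines in *3mlpa* did not overlap between stages 1 and 5 there. Glyma19g39920, annotated with response to stress, had 173, 263 and 146 normalized counts at stage 1 in *3mlpa* and 95.2, 98.5 and 127 at stage 5. In 3MWT it started at 671, 487 and 682 and ended at 90.9, 61.2 and 85.5, so *3mlpa* stood below 3MWT at stage 1 and just above it at stage 5. Glyma15g03050 had 242, 410 and 219 at stage 1 in *3mlpa* against 1224, 366 and 1430 in 3MWT, so the lines overlapped there. Glyma13g23950, annotated with oxidation reduction, had its lowest mean at stage 4 instead. It had 1076, 955 and 1092 normalized counts at stage 1 in *3mlpa*, 105, 140.5 and 376 at stage 4 and 361, 206 and 715 at stage 5.

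The medians of the lines were apart at the middle stages. The median gene retained 59.8 % of its stage 1 mean at stage 2 in *3mlpa*, and 28.4, 16.2 and 7.59 % at the later stages. In 3MWT it retained 38.7, 20.3, 12.1 and 7.41 %. At stage 2, 67 genes in *3mlpa* and 120 in 3MWT already stood under 50 % of their stage 1 mean. This level was first passed at a later stage or not at all in *3mlpa* in 70 genes, at the same stage in 128 and at an earlier stage in 2. In *3mlpa* 22 genes had their highest mean at stage 2, and in all the others it was at stage 1.

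**Figure D3:**
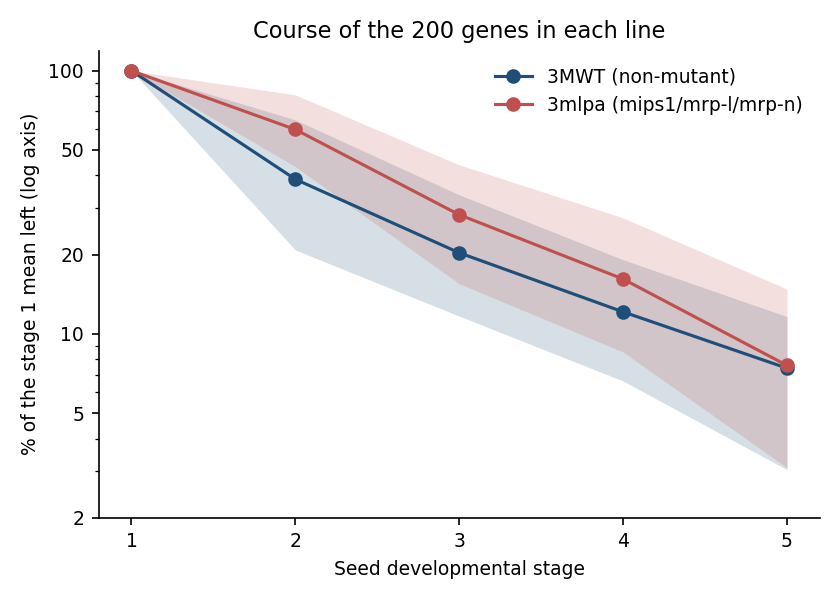
Percent of the stage 1 mean left (log axis) at each seed developmental stage in 3MWT and *3mlpa*. Lines join the medians of the 200 genes and bands span their quartiles. The medians were furthest apart at stage 2 (59.8 % in *3mlpa*, 38.7 % in 3MWT) and met at stage 5 (7.59 and 7.41 %).

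The rule favours genes with a high stage 1 mean in 3MWT, which by itself lowers the percentage left there. The same rule was therefore applied to *3mlpa*. It took 81 of the same genes, 40.5 % of each list. Of the other 119, 50 had a *3mlpa* stage 1 mean under 500, 22 were highest at another stage, with 3 in both classes, and 50 met both conditions but declined too little. In the list chosen in *3mlpa* the order of the lines at stage 2 was reversed, with 44.9 % left in *3mlpa* and 61.7 % in 3MWT. Among the 81 genes in both lists, 54.6 % was left in *3mlpa* and 31.1 % in 3MWT at stage 2, and 4.03 and 4.55 % at stage 5.

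Each step between stages was tested within *3mlpa* in the same fit. From stage 1 to 2, 37 of the 200 genes fell and 0 rose, where 1.05 % of all genes tested were called falling and 4.12 % rising. From stage 2 to 3, 56 fell and 0 rose, against 1.35 % falling and 1.99 % rising among all genes. Among the genes of at least 500 and highest at stage 1 in 3MWT, 4.85 % and 5.96 % were called falling at these steps. Of the 200 genes, 22 fell at both steps. The first count was 20 without *3mlpa* stage 1 replicate 2 and 20 to 24 without any of the stage 2 replicates, and 110 when only the 6 libraries of the 2 stages were fitted. The second was 24 to 28 without any of the stage 2 replicates and 26 and 22 without stage 3 replicates 2 and 3.

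The later steps gave few calls. From stage 3 to 4, 1 gene fell and 0 rose, against 0.009 % falling and 0.018 % rising in all genes, and from stage 4 to 5, 9 fell and 0 rose, against 0.254 % and 0.0045 %. At unadjusted p under 0.05 the counts falling were 103 and 107, with 0 and 4 rising, where 17.9 and 20.8 % of all genes passed in either direction. The median log2 changes over the 4 steps were -0.72, -1.08, -0.80 and -1.04. The last step depended on replicate 3 of *3mlpa* stage 4: without it, 69 genes fell from stage 4 to 5, while it was 2 and 1 without stage 4 replicates 1 and 2 and 0 without stage 5 replicate 1 or 2. From stage 3 to 4 the count was 7 without stage 3 replicate 1, 4 without stage 4 replicate 1 and 0 without stage 3 replicate 2 or 3 or stage 4 replicate 2. The DESeq2 Wald test called 63, 99, 40 and 60 genes falling at the 4 steps.

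Steady decliners were the most common shape. Means fell at every step in 138 genes in *3mlpa* and 167 in 3MWT. Glyma19g01280 fell by 2.24 ± 0.27 on the log2 scale from stage 1 to 2 (edgeR, adjusted p = 0.000113) and by 3.18 ± 0.30 from stage 2 to 3 (adjusted p = 8.90e-05). Glyma09g04550 declined later. It had 967, 1059 and 896 normalized counts at stage 1 in *3mlpa* and 691, 769 and 869 at stage 2, then 35.2, 37.3 and 41.2 at stage 3. It was also the one gene called from stage 3 to 4, to 4.10, 4.19 and 0 normalized counts (log2 change -3.57 ± 0.36, adjusted p = 0.00227), and this call was lost in 3 of 6 cases of a library left out. In 3MWT its stage 3 values were 129, 108 and 56.6, above all of those in *3mlpa*.

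A different shape was seen in Glyma08g06630 and Glyma17g37060, both annotated to lipid metabolic process and oxidation reduction with 3-beta-hydroxy-delta5-steroid dehydrogenase activity. Glyma08g06630 had 8826, 8375 and 7523 normalized counts at stage 1 in *3mlpa*, and still 6999.7, 4786 and 4977 at stage 3. At stage 4 it had 5855, 4246 and 359, and at stage 5 it had 29.0, 44.2 and 27.2. The low stage 4 value was that of replicate 3, the library with the high nutrient reservoir share. The decline from stage 4 to 5 was -6.71 ± 0.79 on the log2 scale (edgeR, adjusted p = 0.00273).

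Glyma17g37060 followed it library by library, with 1959, 1489.6 and 146 normalized counts at stage 4 and 25.8, 30.3 and 21.3 at stage 5 (-5.56 ± 0.73, edgeR adjusted p = 0.00394). In 3MWT both genes ended higher, at 421, 342 and 119 for Glyma08g06630 and 213, 143 and 68.9 for Glyma17g37060. Glyma02g03680, annotated to defense response, also declined late in *3mlpa*, from 1397, 983 and 348 at stage 4 to 61.3, 83.3 and 50.9 at stage 5 (-3.82 ± 0.40, adjusted p = 0.00153). Glyma07g28940 and Glyma09g36080, the 2 genes with the highest stage 1 counts in 3MWT, were called at this step too. Of the 6 cases of a library left out, the stage 4 to 5 call was lost in 3 for Glyma08g06630, 2 for Glyma02g03680 and 5 each for Glyma17g37060, Glyma07g28940 and Glyma09g36080. The other 4 genes called at this step, named here after their values were seen, were Glyma03g40310, Glyma19g01590, Glyma13g42340 and Glyma12g10790.

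**Figure D4:**
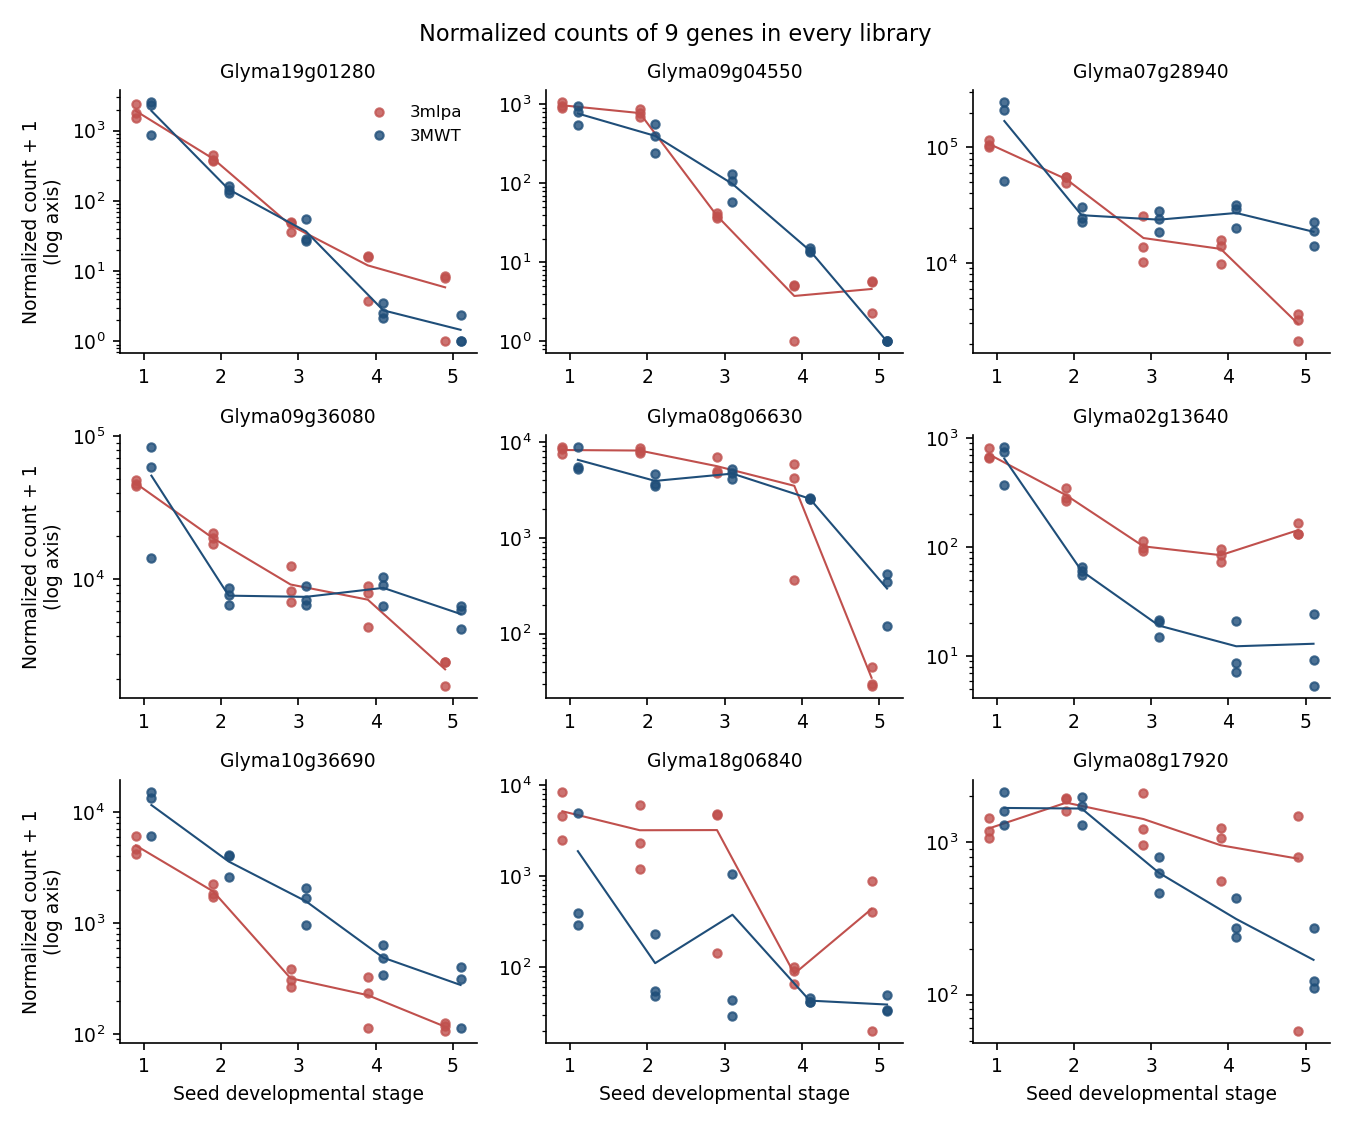
Normalized counts plus 1 (log axis) of 9 genes in every library by seed developmental stage. Points are libraries, 3 per line and stage, and lines join their means. Glyma08g06630 still had 4786 to 6999.7 at stage 3 in *3mlpa* and ended at 27.2 to 44.2. Glyma02g13640 stayed higher in *3mlpa* from stage 2 on, and Glyma10g36690 had the lower mean in *3mlpa* at all 5 stages.

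To ask how the lines differed in these genes at the middle stages, the 6 libraries of each of stages 2, 3 and 4 were compared with edgeR. The rule kept the 3MWT means of these stages below that of stage 1, so these tests are not fully independent of the choice of genes. At stage 2, 76 of the 200 genes were called, 52 higher and 24 lower in *3mlpa*, against 14.2 % of all genes tested, 7.68 % higher and 6.56 % lower. The libraries of the lines did not overlap in any of the 76. Without regard to the test, all 3 *3mlpa* libraries were above all 3 of 3MWT in 78 genes and below in 49, which held for 23.1 % and 23 % of all genes tested. Among the genes of at least 500 and highest at stage 1 in 3MWT, 20.4 % were higher and 5.54 % lower. The 200 genes stood at 26.0 % higher and 12.0 % lower, the former close to the share in the genes from which they were taken. That share itself carries the condition of a 3MWT mean that was lower at stage 2 than at stage 1. In the list chosen in *3mlpa*, 71 were higher and 9 lower. That list required a high stage 1 mean in *3mlpa*, and 133 of its genes had the higher stage 1 mean there. These 2 counts are therefore not independent of the choice.

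The nutrient reservoir share at stage 2 was 0.107, 0.161 and 0.347 % in *3mlpa* and 0.279, 0.452 and 1.98 % in 3MWT. The 14 genes of this share were listed because they were called different between the lines. The part of this share in the higher stage 2 levels in *3mlpa* was not tested. The count at stage 2 fell to 20 (13 higher, 7 lower) in a single fit over all 30 libraries, to 48 without *3mlpa* stage 2 replicate 2, to 50 without *3mlpa* stage 2 replicate 3 and to 49 without 3MWT stage 2 replicate 2.

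The genes higher in *3mlpa* at stage 2 included Glyma07g28940, Glyma09g36080, Glyma10g40300, Glyma19g30460 and Glyma03g28080, the 5 genes with the highest stage 1 means in 3MWT. With a library left out, the call of Glyma10g40300 was lost in 4 of 6 cases and those of the others in 0. Glyma19g30460 had 9431, 13665 and 15019 normalized counts in *3mlpa* and 3668, 3394 and 3328 in 3MWT at stage 2 (log2 fold change 1.88 ± 0.16, edgeR adjusted p = 0.000253). At stage 1 its values were 32439, 25779 and 33818 in *3mlpa* and 45851, 9698 and 71633 in 3MWT, which overlap. The median log2 ratio of the 52 higher genes was -0.09 at stage 1 and 0.34, 0.12 and -0.23 at stages 3 to 5.

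The 24 genes lower at stage 2 behaved otherwise. Their median log2 ratio of *3mlpa* over 3MWT was -1.04 at stage 1 and -0.81, -0.90 and -0.95 at stages 3 to 5. Of the 24, 0 had the higher stage 1 mean in *3mlpa*. Among all the chosen genes, 163 had the lower and 37 the higher stage 1 mean in *3mlpa*, with a median log2 ratio of -0.58. The rule used the 3MWT values of stages 1 and 5, so the ratios there are not independent of the choice. In the 24 genes the median left at stage 2 was 59.8 % in *3mlpa* and 60.1 % in 3MWT, a difference that was not tested. Glyma06g41591 had 33.3, 148 and 133 normalized counts in *3mlpa* and 434, 522 and 791 in 3MWT at stage 2 (log2 fold change -2.47 ± 0.44, edgeR adjusted p = 0.00443). Its stage 5 values were 6.45, 10.1 and 15.4 in *3mlpa* and 51.9, 44.5 and 33.1 in 3MWT, so the lines did not overlap there either. Its stage 2 call was lost in 4 of 6 cases of a library left out. Glyma07g01740 and Glyma05g24945 stood apart in the same way at stage 2, with log2 fold changes of -2.09 ± 0.18 and -1.85 ± 0.17.

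The largest stage 2 difference belonged to Glyma18g06840. It had 1188, 2296 and 6136 normalized counts in *3mlpa* and 228, 47.7 and 53.3 in 3MWT (log2 fold change 4.93 ± 0.78, edgeR adjusted p = 0.00277). Glyma02g37710 had 839.9, 786 and 1346 in *3mlpa* and 208, 63.3 and 77.2 in 3MWT (3.14 ± 0.41, adjusted p = 0.00124). With a library left out, the first call was lost in 1 of 6 cases and the second in 0. Both genes varied widely between replicates. At stage 2 they were highest in the same library of each line, but their lowest *3mlpa* libraries differed. At stage 3 in *3mlpa*, Glyma18g06840 had 142, 4822 and 4698, and Glyma02g37710 had 75.4, 1578 and 1934. Replicate 1, low in both, was the *3mlpa* stage 3 library with the low nutrient reservoir share.

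At stage 3, 3 of the 200 genes were called, 1 higher and 2 lower in *3mlpa*, against 1.23 % of all genes tested (0.637 % higher, 0.591 % lower). At stage 4 there were 4, 1 higher and 3 lower, against 0.996 % (0.355 % higher, 0.641 % lower). These shares of 1.5 and 2.0 % were near those of all genes. The counts depended on single libraries: without replicate 1 of *3mlpa* stage 3, 38 were called at stage 3 (7 higher, 31 lower), and without replicate 3 of *3mlpa* stage 4, 46 were called at stage 4 (36 higher, 10 lower). The count at stage 3 was 0 without 3MWT replicate 1 or 2 and 1 without *3mlpa* replicate 2 or 3. At stage 4 it was 0 without *3mlpa* replicate 2 or 3MWT replicate 1, 1 without *3mlpa* replicate 1 or 3MWT replicate 2, and 2 without 3MWT replicate 3. The nutrient reservoir share, of genes listed as different between the lines, was 1.58 to 6.44 % in *3mlpa* and 5.16 to 9.69 % in 3MWT at stage 3. At stage 4 it was 7.04 to 14.5 % and 11.7 to 13.9 %.

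Glyma02g13640 was the one gene called higher in *3mlpa* at all 3 stages. Its normalized counts at stage 1 were 665, 805 and 658 in *3mlpa* and 824, 368 and 748 in 3MWT, which overlap. At stage 2 they were 281, 348 and 265 in *3mlpa* and 64.7, 55.0 and 59.0 in 3MWT, and at stage 4 they were 83.6, 72.3 and 94.6 against 7.74, 20.2 and 6.20. The log2 fold changes were 2.33 ± 0.14, 2.47 ± 0.23 and 2.84 ± 0.39 at stages 2, 3 and 4 (edgeR, adjusted p = 6.48e-05, 0.00132 and 0.00872). The lines thus overlapped at stage 1, and 3MWT stood lower at stages 2, 3 and 4. Whether they started from the same level was not tested. The rule chose genes by a steep decline in 3MWT, which by itself favours a further decline there. With each library left out in turn, its call held in all 6 cases at stage 2, in 3 of 6 at stage 3 and in 2 of 6 at stage 4.

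Glyma10g36690 was lower in *3mlpa* at stage 3, with 386, 304 and 266 normalized counts against 2068, 1683 and 964 in 3MWT (log2 fold change -2.31 ± 0.28, edgeR adjusted p = 0.00443). Its mean was lower in *3mlpa* at all 5 stages, with log2 ratios of -1.21, -0.89, -2.30, -1.12 and -1.25. The log2 decline of this gene was 5.37 in 3MWT and 5.41 in *3mlpa*. Its call at stage 3 was lost in 4 of 6 cases of a library left out. Glyma18g53460, annotated with RNA processing and ATP binding, had 113, 108 and 107 in *3mlpa* and 461, 326 and 227 in 3MWT (-1.64 ± 0.24, adjusted p = 0.00919). At stage 4, Glyma18g14090, Glyma01g30610 and Glyma08g45810 were lower in *3mlpa*. Glyma18g14090 had 159, 140.5 and 114 there against 605, 536 and 405 in 3MWT (-1.87 ± 0.19, adjusted p = 0.00229). Of the 6 cases of a library left out, the call was lost in 4 for Glyma18g53460, 3 for Glyma18g14090, 4 for Glyma01g30610 and 5 for Glyma08g45810.

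Whether the line difference itself changed between stages 2 and 4 was tested as an interaction over the 12 libraries of these stages. It was called in 7 of the 200 genes, all with a lower ratio of *3mlpa* over 3MWT at stage 4 than at stage 2, against 0.759 % of all genes in either direction and 0.517 % in this one. In the genes of at least 500 and highest at stage 1 in 3MWT, 2.44 % were called in this direction, beside 3.5 % of the 200. A single fit over all 30 libraries called 0 of the 200, total counts in place of TMM 3 and the DESeq2 Wald test 30. Without *3mlpa* stage 4 replicate 3 the count was 25, 8 with a higher and 17 with a lower ratio. It was 1 without 3MWT stage 2 replicate 2 or stage 4 replicate 1, 2 without *3mlpa* stage 2 replicate 2 or 3, and 3 without *3mlpa* stage 4 replicate 2 or replicate 3 of 3MWT at either stage.

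Glyma20g27040 showed the largest such change, at -2.61 ± 0.36 (edgeR, adjusted p = 0.00354). It had 3685, 5055 and 5345 normalized counts in *3mlpa* and 2382, 2137 and 2364 in 3MWT at stage 2. At stage 4 the order was reversed, with 555, 631 and 298 in *3mlpa* and 1871, 1062 and 1671 in 3MWT. Glyma19g02510 changed by -1.49 ± 0.16 (adjusted p = 0.00159), from 444, 499 and 507 against 216, 219 and 216 at stage 2 to 134, 128 and 118 against 191, 143 and 161 at stage 4. Glyma07g28940, the gene with the highest counts, was among the 7, at -2.03 ± 0.30 (adjusted p = 0.00479). With each of the 12 libraries left out, these calls were lost in 6 cases for Glyma20g27040, 0 for Glyma19g02510 and 7 for Glyma07g28940.

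Levels of the lines at stages 1 and 5 are given without a test, since the rule ranked the genes by 3MWT there. The mean was lower in *3mlpa* in 163 genes at stage 1 and in 123 at stage 5. Median log2 ratios of *3mlpa* over 3MWT at stages 1 to 5 were -0.58, 0.14, -0.15, -0.16 and -0.37. In the list chosen in *3mlpa* they were 0.71, 0.70, 0.33, 0.34 and -0.08. The lines' order at stage 1 thus followed the line in which the genes were chosen, while at stage 2 both lists had the higher median in *3mlpa*. The list chosen in *3mlpa* required a high stage 1 mean there, so its stage 2 median is not independent of that choice. On total counts in place of TMM, the edgeR medians of the 200 genes at stages 3 and 4 turned from -0.16 and -0.12 to 0.01 and 0.07, where the median of all genes moved from 0.02 and 0.03 to 0.19 and 0.19.

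**Figure D5:**
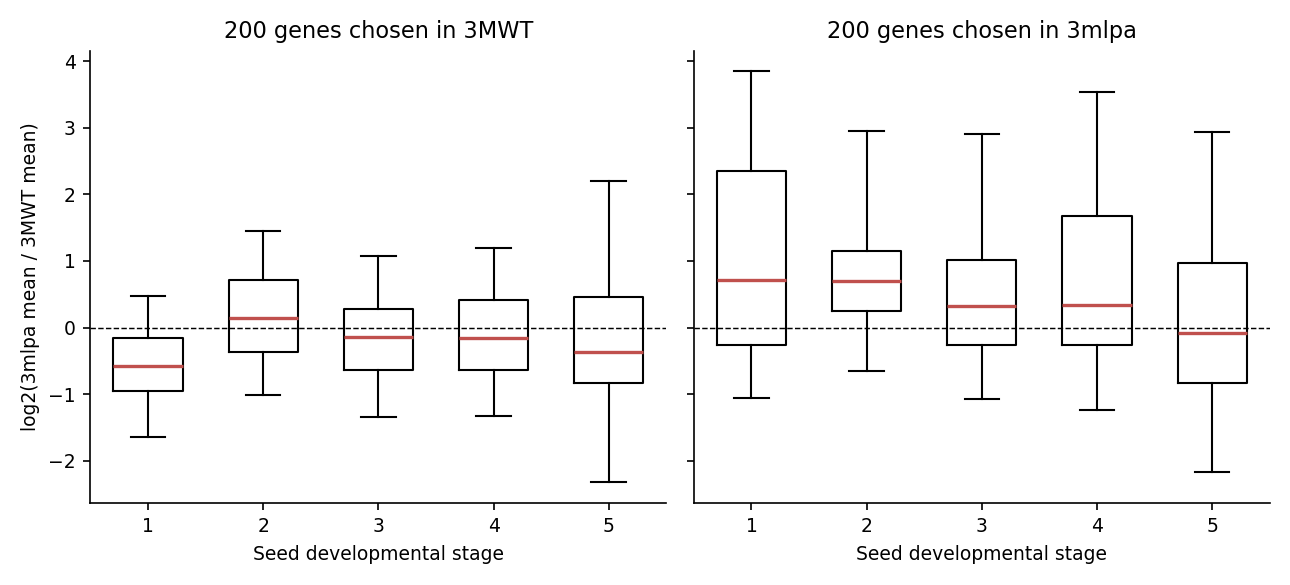
Log2 ratio of the *3mlpa* over the 3MWT mean (1 added to each) by seed developmental stage, for the 200 genes chosen in 3MWT (left) and the 200 chosen by the same rule in *3mlpa* (right). Boxes span the quartiles, red lines are medians and whiskers reach the 5th and 95th percentiles. At stage 1 the medians were -0.58 and 0.71, on opposite sides of 0, and at stage 2 they were 0.14 and 0.70.

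Of the 21 annotated genes, 17 fell from stage 1 to 5 in *3mlpa* and 0 rose, against 21.6 % falling and 20.7 % rising of all genes tested. At stage 2, 4 were higher and 5 lower in *3mlpa*, against 7.68 % and 6.56 % of all genes. These genes carry terms only because they were called different between the lines on these samples, so their count at stage 2 is not independent of that selection. The lists held few of the genes. Carbohydrate metabolic process held 2, lipid metabolic process 3 and oxidation reduction 3, with 2 genes in both of the latter. Nucleosome assembly, proteolysis, regulation of transcription, defense response and hydrolysis of O-glycosyl compounds held 1 each. None of the 200 was listed under photosynthesis, translation, glucan metabolism, glycolysis, transmembrane or oligopeptide transport, protein phosphorylation, apoptosis, microtubule-based movement, nutrient reservoir activity, cell wall or xyloglucan transferase activity, and the terms DNA replication and cell cycle were not in the output.

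Glyma12g07943, of nucleosome assembly, the packing of DNA onto histones, had 1168, 1327 and 1081 normalized counts at stage 1 in *3mlpa* and 163, 207 and 295 at stage 5. It was lower in *3mlpa* at stage 2, with 1064, 1160.1 and 1062 against 1569, 2091 and 2129 (log2 fold change -0.81 ± 0.12, edgeR adjusted p = 0.00194), which was lost in 2 of 6 such cases. Glyma13g26600, an aspartic endopeptidase under proteolysis, the breakdown of proteins, had 1835, 1929 and 1849.6 at stage 1 and 77.4, 63.1 and 147 at stage 5. Glyma07g12321, which acts on O-glycosyl bonds of carbohydrates, had 337, 339 and 309 at stage 1 in *3mlpa* against 1230, 827 and 1030.3 in 3MWT and was among the genes falling from stage 2 to 3 (-2.07 ± 0.41, adjusted p = 0.00701), a call that was lost in all 6 cases of a library left out. Glyma07g13780, of lipid metabolism, declined to 9.68, 12.6 and 2.37 at stage 5 in *3mlpa* against 79.3, 69.5 and 109 in 3MWT. Glyma12g05371, of transcription regulation, ended at 6.45, 15.2 and 7.10 in *3mlpa* and 57.7, 64.0 and 46.9 in 3MWT. In the last 3 genes the lines did not overlap at the stages given, stages 1 and 5, where the rule used the 3MWT values. All *3mlpa* libraries lay below all of 3MWT in 61 of the 200 genes at stage 1 and above in 9. At stage 5 they lay below in 47 and above in 19. The share over all genes is given only for stage 2, where 23 % lay below. These counts are therefore not read as a result about the 200 genes.

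Some of the 200 genes are neighbours, and pairs are named here after their values were seen. By the order of identifiers there were 10 pairs with at most 2 genes between them, 7 of them adjacent. Over the 15 *3mlpa* libraries, Pearson's r of log2 values in these pairs ranged from 0.72 to 0.99, a description over libraries that share stages. Most of the 200 genes declined over these stages, which by itself raises r, and pairs that are not neighbours were not compared. Glyma08g24530 and Glyma08g24540, with 1 gene between them, had an r of 0.99 and declined by 2.58 and 2.49 on the log2 scale. Glyma08g17920, the gene of the smallest decline in *3mlpa*, has Glyma08g17935 next to it, which declined by 2.01 in *3mlpa* and 5.33 in 3MWT. Adjacent Glyma15g03040 and Glyma15g03050 differed more, with declines of 4.16 and 1.24 in *3mlpa*. If neighbours are near-identical copies, reads may have been split or set aside between them, so single values of such pairs are uncertain.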

How the data were processed

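Reads were mapped by the authors with TopHat 2.0.8 against Glyma.Wm82.a1.0, and reads per gene were counted with HTSeq-count in Union mode. The deposited counts were raw, and 5 summary lines that name no gene were left out (reads on no gene were 15.9 to 37.2 per 100 gene counts in *3mlpa* and 15.1 to 42.4 in 3MWT). The authors' second table, treated as a signal, held these counts divided by a DESeq (1.12.1) size factor per library over all 30 libraries, and it chose the genes. In the deposited agriGO output only the GO terms, their gene identifiers and numbers of background genes (counts of the authors) were used, not its p-values. The authors' tables of differentially expressed genes, which hold means, log2 values and p-values of their own comparisons, were not used.

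Tests used edgeR 4.0.16 in R 4.3.3 on the raw counts, with TMM and a minimum of 10 counts summed over the libraries of a fit. *3mlpa* stages shared a fit over its 15 libraries, and lines were compared over 6. Standard errors are the log2 change divided by the root of the test's F. Alternatives were total counts, other filters, a replicate block, DESeq2 1.42.0, other sets of libraries and other limits for choosing the genes. Counts on genes were 14150244 to 29476755 per library. Adjusted p-values are Benjamini-Hochberg values over all genes tested. Replicates were separate seed pools. An exact permutation test of 3 against 3 cannot go below 0.1, so genes rest on the fits across all genes. The scripts were tested on simulated data.

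The genes and lists were chosen with earlier results of these data known. Named genes were the 10 largest declines in 3MWT, the 5 highest stage 1 means, the 5 largest and 5 smallest declines in *3mlpa*, up to 3 genes per direction at stages 2, 3 and 4, up to 3 per GO list, the genes at the limit, up to 3 for the interaction, MRP-L and MRP-N. Any others are named as chosen after their values were seen. No sequences or gene names for these identifiers were used here.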

Additional observations from a re-analysis of the deposited data

Results flagged for a closer look

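In 7 of the 200 genes the difference between the lines changed between stages 2 and 4 in the test of the interaction with edgeR (12 libraries, 3 per line and stage, Benjamini-Hochberg adjusted p at or below 0.01). In each of them the log2 ratio of *3mlpa* over 3MWT was lower at stage 4 than at stage 2. These were 3.5 % of the 200, against 0.517 % of all genes tested in this direction. Among the genes of at least 500 and highest at stage 1 in 3MWT it was 2.44 %. A single fit over all 30 libraries called 0 of the 200. The change was -1.49 for Glyma19g02510, -1.77 for Glyma12g16146, -2.61 for Glyma20g27040, -1.46 for Glyma01g32760, -1.74 for Glyma08g19460, -2.03 for Glyma07g28940 and -1.80 for Glyma01g30610. Adjusted p-values ran from 0.00159 for Glyma19g02510 to 0.00682 for Glyma01g30610. Glyma01g32760 and Glyma08g19460 are named here after their values were seen. In Glyma08g19460 the stage 2 normalized counts were 1245, 1640.4 and 1307 in *3mlpa* and 531, 529.8 and 496 in 3MWT, and the stage 4 values of 198, 211 and 119.6 and of 262, 196 and 228 overlapped. In 6 of the 7 genes the stage 2 means were called higher in *3mlpa*, and Glyma01g30610 was not called there (log2 fold change 0.34 ± 0.20, adjusted p = 0.222). Of the 6 genes of the 7 other than Glyma01g30610, 0 were called lower at stage 4. With each of the 12 libraries left out in turn, the interaction of Glyma19g02510 held in all 12 cases, and those of Glyma12g16146, Glyma20g27040, Glyma07g28940 and Glyma01g30610 were lost in 4, 6, 7 and 9.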

How the results depend on the processing

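Of the 200 genes, 63 were taken with a stage 1 mean of at least 100 and 52 with at least 2000, and 173 to 178 without one 3MWT replicate number. The median log2 decline in *3mlpa* was 4.93 and 2.08 with these minimum means, 4.77 for the first 100 genes (all 100 of them among the 200), 2.62 for 400 genes, 4.97 on raw counts scaled to library totals, and 3.50 to 4.01 without one replicate number.

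The number called falling from stage 1 to 5 was 187 to 194 with one library left out. Those of the 4 steps were 20 to 32, 22 to 64, 0 to 7 and 0 to 69, and those of the lines at stages 2, 3 and 4 were 48 to 89, 0 to 38 and 0 to 46, with 1 to 25 for the interaction. The DESeq2 Wald test called 63, 99, 40 and 60 at the steps, 29 and 18 between the lines at stages 3 and 4 and 30 for the interaction. A single fit over all 30 libraries gave 14 and 27 at the last 2 steps, 20, 15 and 7 for the lines and 0 for the interaction. The 6 libraries of the 2 stages alone gave 110 from stage 1 to 2 and 0 at each of the last 2 steps. Total counts gave 6 and 25 at the last 2 steps and 3 for the interaction. The filterByExpr filter gave 2 from stage 3 to 4, no filter gave 6 between the lines at stage 3, and a change of at least 2-fold gave 36 at stage 2. Of the list chosen in *3mlpa*, an alternative chosen after seeing the data (as was the choice of genes without 3MWT stage 1 replicate 2), 1 was called at stage 4. The causes were not tested. For 116 calls of single named genes, 1617 values under other settings were computed. Of these, 238 missed the threshold and 0 changed direction, and 64 of the calls held under every setting tried for them.

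Replicate numbers were not treated as pairs in the main tests. Deviations of same-numbered libraries from their group means correlated above 0.1 in 11 of 30 pairs of *3mlpa* stages, with r up to 0.47. In 3MWT this held for 7 of 30 pairs, with r up to 0.31, so pairing was not shown to be absent. With a replicate block, the count from stage 4 to 5 was 5 and that of the lines at stage 3 was 6, and the other counts moved by less than 1.5-fold. Of the 116 calls of single named genes, 12 were lost with the block. With 3 libraries per group, genes with few counts at stage 5 carry wide errors, and a gene that missed the threshold was not shown to be unchanged.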
